A study of Mus musculus with 2 samples.

Results

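Psmb8, Psmb9 and Psmb10, the genes of the 3 catalytic subunits of the immunoproteasome, and Psme1 and Psme2, the genes of its 11S activator, were followed in mouse melanoma cells recovered from lung and from bone. The 5 genes were taken by symbol from the 32285 genes of the RNA matrix, where each symbol occurs once. They were set against Psmb5, Psmb6 and Psmb7, the constitutive catalytic subunits. In CPM, the UMIs (counted molecules) of a gene per 1000000 UMIs of the group, the summed catalytic genes of the immunoproteasome stood at 219 in tumour cells from perforin-deficient lung, 396 in those from wild-type lung and 609 in those from perforin-deficient bone. The activator genes followed the same order over a narrower range, at 222, 306 and 365. The summed constitutive genes stood at 971, 965 and 994. These levels are of the cells that could be assigned to a source.

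The proteasome is the barrel-shaped protease that degrades ubiquitin-tagged proteins, and many of the peptides shown on MHC class I molecules come from it. Cells exposed to interferon, above all interferon gamma, make Psmb8, Psmb9 and Psmb10, which are built into new core particles in the places that Psmb5, Psmb6 and Psmb7 otherwise fill. Psmb8 replaces Psmb5, which cuts after bulky hydrophobic residues, Psmb9 replaces Psmb6, which cuts after acidic ones, and Psmb10 replaces Psmb7, which cuts after basic ones. Psme1 and Psme2 encode the alpha and beta chains of a ring that caps the core and opens its gate, and it is also induced by interferon gamma. Perforin, encoded by Prf1, is the pore-forming protein with which cytotoxic T cells and NK cells kill their targets.

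The cells were B16F10, a transplantable melanoma line of C57BL/6 origin, here carrying GFP. They were recovered from lungs of wild-type (WT) hosts, lungs of Prf1-/- hosts and knees of Prf1-/- hosts, the last called Prf1-/- bone. The sort kept GFP-positive cells without CD45 or DAPI, so all groups were sorted as the same tumour line. The number, age and strain background of the hosts are not given in the sources used here. Lungs were digested for 20 min and knees were crushed and digested for 30 min, so organ and preparation cannot be told apart in a comparison of bone with lung. Each source carried its own hashtag, a barcoded antibody bound to the cell surface, and the sources were pooled into 1 run with 1 RNA library and 1 hashtag library. The RNA matrix holds 15961 barcodes and 35150895 molecules counted by unique molecular identifier (UMI), and the hashtag matrix holds 6208 barcodes. The matrices share 4204 barcodes, and 73.7% of RNA barcodes are not listed in the hashtag matrix, whose smallest hashtag total is 503. With at least 1000 genes, at most 15% mitochondrial UMIs and a leading hashtag at 2 times the second or more, 1520 cells were from Prf1-/- lung, 1227 from WT lung and 385 from Prf1-/- bone. A further 6270 cells had no hashtag listing and thus an unknown source, and 242 listed cells had no leading hashtag. Source levels thus describe listed cells alone, with hashtag totals of 503 or more, and most members rose with that total (below). The part of this selection in the comparisons between sources was not tested. Each source is 1 hashtag group with no replicate, so no comparison has a test. All intervals are exact 95% intervals that cover counting error only and not the spread between animals. Those of CPM and of ratios also leave out the spread of levels between cells.

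The labelled cell type held in every source, apart from lung epithelial UMIs concentrated in a few WT lung cells. All 9 melanocyte lineage markers were detected, at a summed 14713 CPM in Prf1-/- lung, 14469 in WT lung and 11164 in Prf1-/- bone. In bone, 9 of 9 lay below their Prf1-/- lung level, with a median log2 ratio of -0.37 against -0.03 over all measured genes. Against WT lung 8 of 9 did, with a median of -0.39 against -0.03. Ptprc, which encodes CD45, had 0 UMIs in each of the 3 sources. The myeloid list stood at 10.4, 25.9 and 16.9 CPM in that order, with 5, 4 and 5 of its 13 genes detected and Adgre1, Csf1r, Itgam and Itgax at 0. The T and NK cell list stood at 0, 0.517 and 0 CPM. The lung epithelial list stood at 13.5 CPM in Prf1-/- lung, 203.3 in WT lung and 19.2 in Prf1-/- bone, with Epcam and Krt18 at 0. In WT lung 7 of its 9 genes were detected. The surfactant gene Sftpc had 651 UMIs in 34 cells there, against 47 UMIs in 47 Prf1-/- lung cells and 19 in 19 bone cells. Some WT lung barcodes may thus be epithelial or mixed. Without the cells that held any immune or lung epithelial marker UMI, Psmb8 in Prf1-/- lung was 0.504 times its WT lung level and the bone to lung ratio within Prf1-/- hosts was 3.64, close to the values over all cells given below.

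Psmb8 and Psmb9 had the widest range of levels between the sources. Psmb8 stood at 77.9 CPM (interval 70.1–86.2, 368 UMIs) in Prf1-/- lung, 160.1 CPM (148–173, 619 UMIs) in WT lung and 287 CPM (259–318, 373 UMIs) in Prf1-/- bone. In the cells with no hashtag listing it stood at 67.1 CPM (63.2–71.2, 1105 UMIs). No interval of the 3 sources overlapped another. Psmb9 was the least abundant member by UMIs, at 30.0 CPM (25.3–35.4) in Prf1-/- lung, 55.9 CPM (48.7–63.8) in WT lung and 111 CPM (93.5–130.5) in Prf1-/- bone. The unlisted cells held 29.0 CPM of Psmb9, within the interval of Prf1-/- lung. The third catalytic gene, Psmb10, stood at 111 CPM (101–121) in Prf1-/- lung, 179.8 CPM (167–194) in WT lung and 211 CPM (187–237) in Prf1-/- bone. For Psmb10 the intervals of WT lung and Prf1-/- bone overlapped, and Prf1-/- lung lay below both. The unlisted cells were at 115 CPM of Psmb10, which overlapped Prf1-/- lung.

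The 2 activator genes were close to each other in level in every source. Psme1 stood at 119 CPM (109–129) in Prf1-/- lung, 158 CPM (146–171) in WT lung and 182 CPM (159.9–207) in Prf1-/- bone. Psme2 stood at 103 CPM (93.9–112), 147 CPM (136–160.1) and 182 CPM (159.9–207) in the same order. For both genes, Prf1-/- lung lay below the other 2 sources, whose intervals overlapped, for Psme2 barely. The unlisted cells stood at 116 CPM of Psme1 and 106 CPM of Psme2, within the Prf1-/- lung intervals. Psme2 has a near-identical processed copy, Psme2b, to which 113 UMIs were assigned in the filtered cells against 3135 for Psme2, so the split of reads between them is uncertain.

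The constitutive genes had nearly equal levels in all sources. Psmb5 stood at 410.4 CPM (392–429) in Prf1-/- lung, 414 CPM (394–435) in WT lung and 401 CPM (367–437) in Prf1-/- bone. Psmb6 stood at 392, 391 and 437 CPM, and Psmb7 at 168, 159 and 156 CPM, in the same order. The intervals of the 3 sources overlapped for each of these genes.

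**Figure D1:**
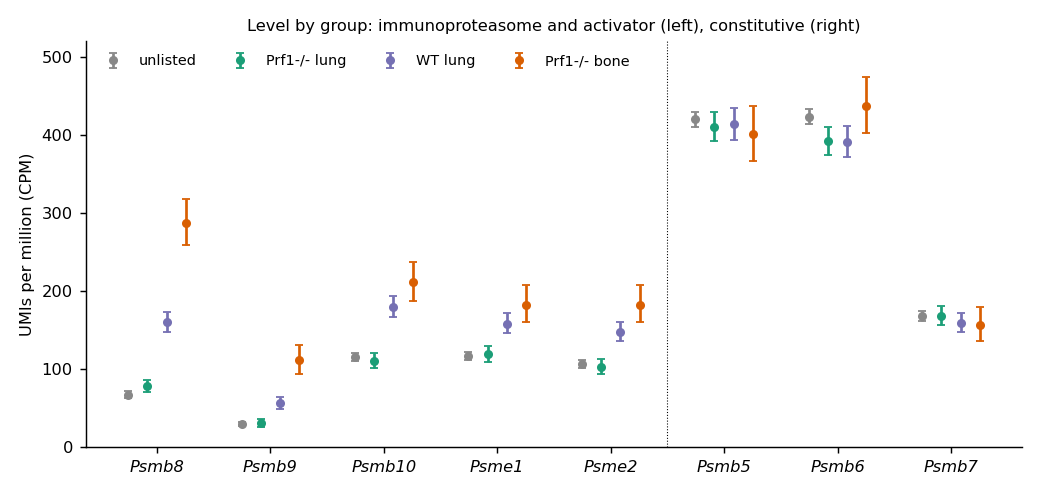
Level of each immunoproteasome, activator and constitutive subunit gene in CPM in the 3 sources and the cells with no hashtag listing; bars are exact 95% Poisson intervals. Psmb8 runs from 77.9 CPM in Prf1-/- lung to 287 CPM in Prf1-/- bone, while Psmb5 stays between 401 and 419.9 CPM in all 4 groups of cells.

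Psmb8 and Psmb9 lie in the MHC region of chromosome 17, interleaved with the genes of the peptide transporter. On GRCm38.p6, the RefSeq assembly of the mm10 build, Psmb9 is at chr17:34182030-34187330, Tap1 at chr17:34187556-34197225, Psmb8 at chr17:34198195-34201454 and Tap2 at chr17:34204479-34216321. Psme1 (chr14:55578494-55581527) and Psme2 (chr14:55587440-55591101) are near neighbours on chromosome 14, and Psmb10 is alone among the members on chromosome 8, at chr8:105935728-105938392. RefSeq promoter windows, from 250 bases before to 50 bases after each gene start, were matched for 7 of the 8 genes. These windows were read because the members differed together between sources and the constitutive genes differed little. Windows are printed 5′ to 3′ on the gene's strand, with matches to interferon-related motifs or to TGACNNNGC in capitals. Positions count from 1 at the window's 5′ end.
Psmb8, chr17:34197945-34198244, plus strand: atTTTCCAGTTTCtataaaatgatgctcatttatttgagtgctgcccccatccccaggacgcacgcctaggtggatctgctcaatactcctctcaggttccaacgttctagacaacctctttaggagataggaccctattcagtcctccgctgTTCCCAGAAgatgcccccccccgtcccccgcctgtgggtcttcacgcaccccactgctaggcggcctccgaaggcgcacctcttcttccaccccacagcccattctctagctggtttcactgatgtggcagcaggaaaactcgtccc
Psmb9, chr17:34187281-34187580, minus strand: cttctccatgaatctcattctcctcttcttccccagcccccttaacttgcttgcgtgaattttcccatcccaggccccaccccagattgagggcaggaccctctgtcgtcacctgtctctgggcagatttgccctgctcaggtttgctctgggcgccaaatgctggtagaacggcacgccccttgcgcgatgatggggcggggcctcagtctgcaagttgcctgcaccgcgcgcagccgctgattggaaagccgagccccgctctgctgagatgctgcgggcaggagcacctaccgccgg
Psmb10, chr8:105938343-105938642, minus strand: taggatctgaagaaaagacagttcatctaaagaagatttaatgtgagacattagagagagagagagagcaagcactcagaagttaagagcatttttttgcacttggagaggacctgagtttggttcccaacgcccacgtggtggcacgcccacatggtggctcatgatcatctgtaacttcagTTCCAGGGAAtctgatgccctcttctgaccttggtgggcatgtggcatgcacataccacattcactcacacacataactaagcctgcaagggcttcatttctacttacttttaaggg
Psme1, chr14:55578244-55578543, plus strand: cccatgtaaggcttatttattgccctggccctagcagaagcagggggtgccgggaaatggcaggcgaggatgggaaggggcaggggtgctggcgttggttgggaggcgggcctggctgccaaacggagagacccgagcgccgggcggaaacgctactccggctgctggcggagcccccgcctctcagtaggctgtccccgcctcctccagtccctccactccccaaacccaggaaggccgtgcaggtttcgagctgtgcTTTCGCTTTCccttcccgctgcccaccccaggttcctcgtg
Psmb5, chr14:54617946-54618245, minus strand: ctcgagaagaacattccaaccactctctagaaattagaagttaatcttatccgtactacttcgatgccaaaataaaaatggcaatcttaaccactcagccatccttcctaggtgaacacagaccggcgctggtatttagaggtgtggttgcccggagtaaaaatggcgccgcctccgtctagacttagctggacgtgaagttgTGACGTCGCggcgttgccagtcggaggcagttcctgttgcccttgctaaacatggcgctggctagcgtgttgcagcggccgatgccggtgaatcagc
In the Psmb8 window, the first capitals match a pair of GAAA set 3 bases apart, on the opposite strand at bases 3–13, overlapping GAAACT at bases 8–13, and the second match TTCNNNGAA at bases 154–162. The Psmb10 window holds TTC and GAA set 4 bases apart at bases 184–193, and that of Psme1 holds a pair of GAAA set 2 bases apart on the opposite strand at bases 260–269. The Psmb9 window shares 275 bases with that of Tap1, which is read from the other strand, and holds only CCAAT, at bases 243–247 on the opposite strand and left in lower case. Both windows of Psme2 held none of the motifs. The constitutive genes Psmb5 and Psmb6 each held TGACNNNGC, at bases 204–212 and 242–250. Each of 11 motifs was sought on both strands of 32851 mouse windows. The interferon-response types, pairs of GAAA set 2 or 3 bases apart, were in 3.44% and 2.75% of windows, and GAAACT in 15.8%. The palindromes TTCNNNGAA and the same with 4 bases between were in 8.30% and 6.95%. Of the NF-kappaB types, GGGA and TTCC set 2 bases apart were in 1.47%, the same with CT as those bases in 0.155% and GGAAANNCC in 5.82%. TGACNNNGC, the core of antioxidant-response elements, was in 12.4%, CCAAT in 37.4% and CGGAAG, an ETS-factor core, in 16.9%. A match is a run of letters and not a shown binding site.

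In lung, the comparison of Prf1-/- with WT hosts asks how the tumour cells differed when the host lacked perforin. All 3 catalytic genes were lower in the Prf1-/- host by 1.5-fold or more, with 1 outside the interval. This is the rule for a call here, applied to genes with a mean of at least 10 CPM. The activator genes were below WT too, by less than the called size. Of the 7748 genes measured, 1.07% were called lower and 0.684% higher. Psmb8 in Prf1-/- lung was 0.486 times its WT lung level (interval 0.426–0.554). Psmb9 was at 0.538 times (0.432–0.668) and Psmb10 at 0.615 times (0.548–0.690). Psme1 was at 0.752 times (0.670–0.845) and Psme2 at 0.697 times (0.617–0.788). Psme1 passed the rule with at least 2000 genes a cell (0.553), over the inner hashtag range (0.652) and at totals of 700 to under 1000 (0.646). Psme2 passed it with a hashtag call at 5 times the second (0.655), after thinning (0.655), in the lowest part by G2 and M phase share (0.656) and at totals below 700 (0.632) or of at least 1000 (0.597), and Psmb10 at 0.736 lost its call in the highest part by that share. The median log2 ratio of all measured genes was 0.00 and those of the 5 members ran from -1.03 for Psmb8 to -0.41 for Psme1. Psmb5, Psmb6 and Psmb7 were at 0.991, 1.00 and 1.06 times their WT lung levels, each with an interval that holds 1.

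Within Prf1-/- hosts, bone was set against lung. All 5 members were called higher in bone, among 7695 genes of which 2.64% were called higher and 4.85% lower. Psmb8 and Psmb9 were each 3.69-fold higher, with intervals of 3.18–4.27 and 2.90–4.68. Over the inner range of hashtag totals the ratios were 6.80 and 8.15, and other ranges, given below, differed. Each source had its own hashtag, so equal totals need not mean equal binding. Psmb10 was 1.91-fold higher (1.64–2.21), Psme2 1.77-fold (1.51–2.08) and Psme1 1.53-fold (1.31–1.79). The upper bounds of Psmb10, Psme1 and Psme2 lay below the lower bounds of Psmb8 and Psmb9, and the summed catalytic genes had a ratio of 2.79 (2.54–3.06) against 1.65 (1.47–1.84) for the summed activator genes. Psmb5 was at 0.977 times its lung level (0.885–1.08) and Psmb6 at 1.11 times (1.01–1.22). Among the 47 bone and 145 lung cells with at least 2000 genes, Psmb10 at 1.25 (0.848–1.81) and Psme2 at 1.24 (0.827–1.81) were no longer called, and in the highest of 3 parts by G2 and M phase share Psmb10 was at 1.49. Psme1 lost its call under HTODemux, the hashtag caller of Seurat (1.42, 1.22–1.66), relative to the constitutive core (1.36), after thinning (1.48), in the lowest part by G2 and M phase share (1.34) and at hashtag totals below 700 (1.33).

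Prf1-/- bone against WT lung differs in both host and organ. Psmb8, 1.79-fold higher (1.57–2.04), and Psmb9, 1.98-fold higher (1.59–2.46), were called among the members. Over 7707 genes, 2.28% were called higher and 5.29% lower. Psmb10 was at 1.17 times its WT lung level (1.02–1.35), Psme1 at 1.15 times (0.989–1.34) and Psme2 at 1.24 times (1.06–1.44). Hence the order Prf1-/- lung, WT lung, Prf1-/- bone held by non-overlapping intervals for Psmb8 and Psmb9, while for Psmb10 and both activator genes the level intervals of WT lung and bone overlapped. The ratio intervals of Psmb10 and Psme2 left out 1, short of a call, and that of Psme1 held 1. With at least 2000 genes a cell, Psmb8 was at 1.33 (0.931–1.87) and not called, and with hashtag totals of 700 to under 1000, Psmb10 was called at 1.52 (1.15–1.99). The 3 comparisons share groups, so their values are not independent of each other.

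Set as a share of the UMIs of an exchangeable pair, the measure does not use the group total. Psmb8 made up 15.9% (14.5–17.5) of the UMIs of Psmb8 and Psmb5 in Prf1-/- lung, 27.9% (26.0–29.8) in WT lung and 41.7% (38.5–45.0) in Prf1-/- bone. Psmb9 made up 7.11% (6.03–8.33), 12.5% (11–14.1) and 20.2% (17.3–23.4) of the UMIs of Psmb9 and Psmb6. Psmb10 made up 39.7% (37.0–42.4), 53.1% (50.3–55.8) and 57.4% (52.9–61.9) of those of Psmb10 and Psmb7. Thus the share of each inducible gene was lowest in Prf1-/- lung, and for the first 2 pairs it was highest in bone without overlap. These shares compare groups and do not give the share of subunits in the protease.

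The rest of the proteasome was measured from lists of the core alpha subunits, the other beta subunits, the 19S cap, the other activators and the assembly factors. None of these genes was called in any comparison between sources. For Prf1-/- against WT lung, the median log2 ratios of the lists lay between -0.08 and 0.07. For bone against Prf1-/- lung, all 7 measured alpha subunits lay above 1, with a median log2 ratio of 0.27, as did the 4 other beta subunits (0.14) and the 12 non-ATPase cap subunits (0.15). Among the most abundant, Psma7 of the alpha ring stood at 639.8 CPM in Prf1-/- lung, 666 in WT lung and 773 in Prf1-/- bone, a bone to lung ratio of 1.21 (1.12–1.30). Psma3, also of the alpha ring, stood at 445, 446 and 512 CPM. The beta subunit genes Psmb3 and Psmb1 stood at 415 and 436 CPM in Prf1-/- lung, 435 and 418 in WT lung and 470.2 and 469 in bone. The cap ATPases Psmc5 and Psmc3 stood at 301 and 261 CPM in Prf1-/- lung and at 352 and 254 in bone. Of the other cap subunits, Psmd8 stood at 878, 961 and 898 CPM and Psmd7 at 389, 395 and 509, in the order Prf1-/- lung, WT lung and bone. Psme3, whose product forms the nuclear 11S ring, stood at 36.8, 37.8 and 33.9 CPM, and Psme4, the gene of another cap, at 66.4, 61.6 and 64.6. Of the assembly genes, Pomp stood at 407, 429 and 439 CPM and Psmg4 at 126, 138 and 133. Scaled to the constitutive core subunits, the bone to Prf1-/- lung ratio of the summed catalytic genes was 2.47 in place of 2.79.

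**Figure D2:**
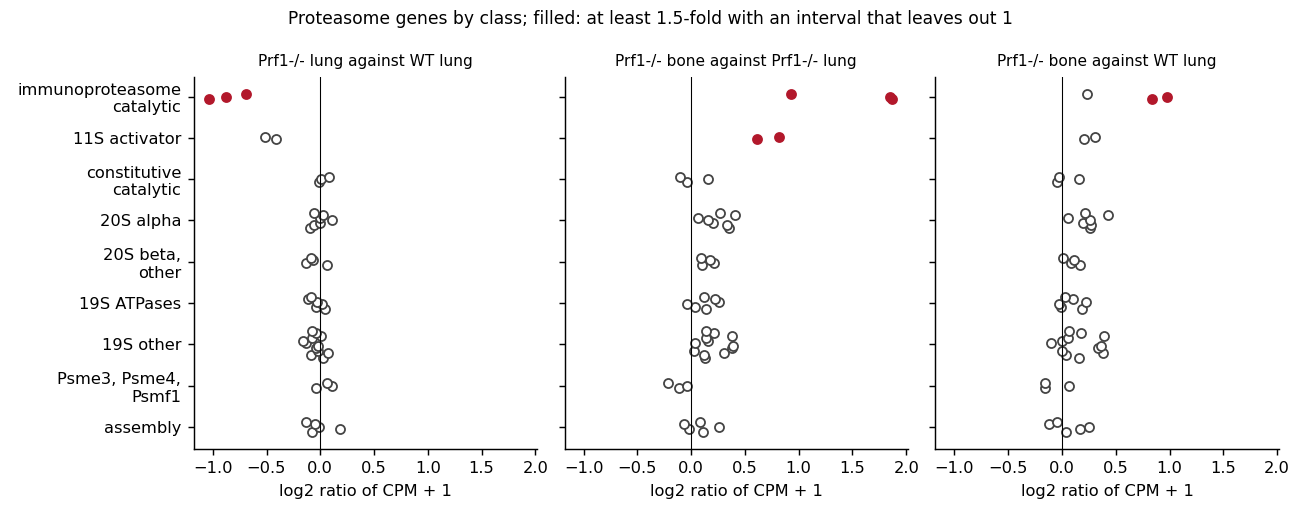
Log2 ratios of every measured proteasome gene in the 3 comparisons between sources, grouped by class; each point is a gene and filled points are called. The filled points all belong to the immunoproteasome and activator genes, from -1.03 for Psmb8 in Prf1-/- against WT lung to 1.87 for Psmb8 in bone against Prf1-/- lung.

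Psmb8 and Psmb10 were spread less evenly over the cells than the activator genes. With each cell thinned to 1500 UMIs, Psmb8 was seen in 9.35% (7.93–10.9) of Prf1-/- lung cells, 17.4% (15.3–19.6) of WT lung cells and 30.9% (26.3–35.8) of Prf1-/- bone cells. Before thinning these shares were 15.3%, 26.5% and 47.3%, at median depths of 2826.5, 2909 and 3107 UMIs. Sftpc, a surfactant gene that melanoma cells should lack, was seen after thinning in 1.25%, 1.63% and 2.08% of the cells in the same order. The Psmb8 shares lay above it in each source. Stray Psmb8 molecules would depend on the level of Psmb8 in the pool, so Sftpc sets no floor for Psmb8. The part of stray molecules in the Psmb8 shares was not tested. Psmb9 was seen in 3.88%, 7.33% and 14.5% of thinned cells, Psmb10 in 13.0%, 19.4% and 23.9%, Psme1 in 16.3%, 21.2% and 22.9%, and Psme2 in 13.9%, 19.9% and 26.2%. Psmb5 was seen in 43.8%, 44.4% and 44.2%. The variance of thinned UMIs over their mean, which is 1 for even random counts, was 1.39 for Psmb8 in Prf1-/- lung, 1.67 in WT lung and 1.46 in bone. For Psmb10 it was 1.29, 1.59 and 1.36, and for Psmb9 1.11, 1.18 and 1.12, whereas Psme1 (1.09, 1.10, 1.15) and Psme2 (1.04, 1.11, 1.09) were near the constitutive Psmb5 (1.07, 1.05, 0.984). For the constitutive Psmb6 it was 1.08, 0.982 and 1.26, and for Psmb7 1.07, 1.01 and 1.13. In bone, Psmb9 lay below Psme1, and Psmb6 lay above Psmb9, Psme1 and Psme2. At least 1 member was seen in 40.8% (38.3–43.3) of Prf1-/- lung cells, 52.7% (49.9–55.6) of WT lung cells and 65.2% (60.2–70.0) of bone cells. All 5 members were seen together in 0%, 0.41% and 1.04% of the cells.

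**Figure D3:**
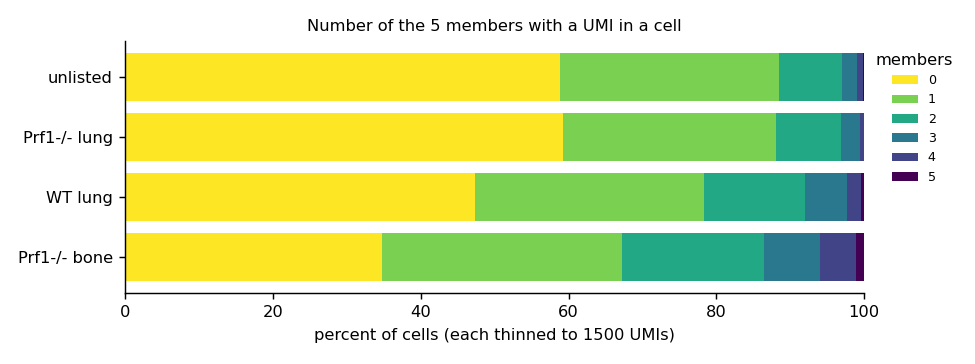
Share of cells, thinned to 1500 UMIs each, by how many of the 5 members had a UMI, for the 3 sources and the unlisted cells. The share with none of the 5 is 34.8% in Prf1-/- bone, 47.3% in WT lung, 58.8% in the unlisted cells and 59.2% in Prf1-/- lung.

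Cells with a Psmb8 UMI also held more of the other members. In WT lung, Psmb9 stood at 140.8 CPM in the 213 thinned cells with a Psmb8 UMI and at 36.2 CPM in the 1014 without. The ratio of these levels was 5.44 (3.12–9.28) in Prf1-/- lung, 3.90 (2.57–5.88) in WT lung and 2.17 (1.28–3.66) in Prf1-/- bone. For Psmb10 the ratios were 3.14, 2.82 and 2.78, for Psme1 1.67, 2.00 and 2.03, and for Psme2 2.35, 1.70 and 2.20, in the same order. Psmb5 gave 1.00, 0.961 and 0.925, Psmb6 1.11, 1.25 and 0.961, and Psmb7 0.833, 1.23 and 1.20. In every source the other catalytic and activator genes were thus higher in the cells with Psmb8, and the constitutive genes lay nearer to 1. Among the constitutive genes, only Psmb6 had intervals that left out 1, in WT lung (1.03–1.51) and in the unlisted cells, at 1.18 (1.06–1.32). Across 9637 thinned cells, Pearson r of the 10 member pairs ran from 0.077 to 0.278 with a median of 0.136, the highest being Psmb8 with Psmb10, and r of the 15 pairs of a member with a constitutive gene had a median of 0.014. The pooled r mix groups whose levels differ. Within sources, r of the member pairs ran from 0.036 to 0.222 in Prf1-/- lung, 0.090 to 0.268 in WT lung and 0.020 to 0.323 in bone. The highest r of a member with a constitutive gene was 0.087, 0.073 and 0.066 in the same order, above the lowest member pair in Prf1-/- lung and bone. These are weak correlations in sparse counts over cells that share 1 library, given as a description.

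**Figure D4:**
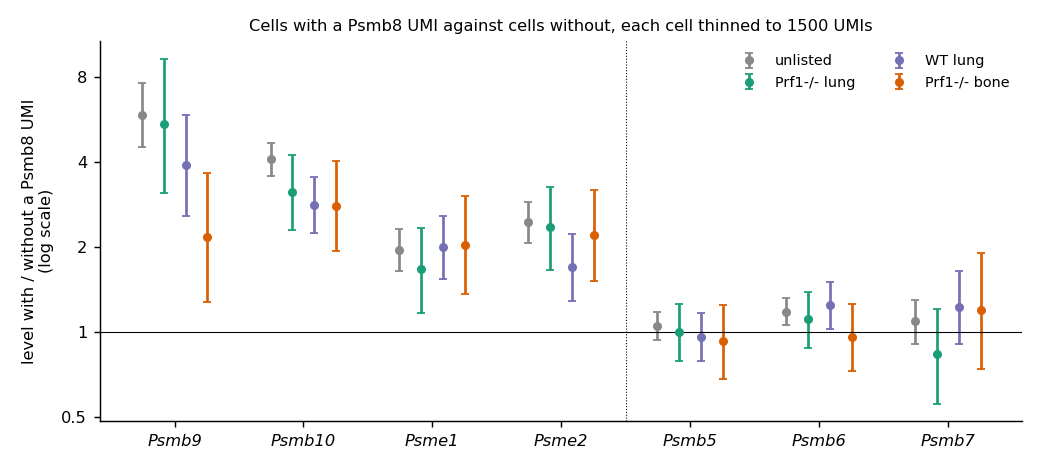
Ratio of each gene's level in cells with a Psmb8 UMI to that in cells without, after thinning to 1500 UMIs (log axis), with exact 95% intervals. Psmb9 is at 5.44 in Prf1-/- lung. Psmb5 lies between 0.925 and 1.05 and Psmb6 between 0.961 and 1.25 in all 4 groups of cells.

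The 10 genes whose thinned UMIs followed the summed members most closely, of 6027 genes with at least 500 UMIs, had r from 0.322 down to 0.189 over the same 9637 cells. In order they were Iigp1, Gbp2, Zbp1, Ifitm3, H2-K1, Bst2, Ifi47, H2-D1, Igtp and B2m. These values pool cells of groups whose levels differ, and the order differed within sources: r of the 10 genes ran from 0.194 to 0.364 in WT lung, 0.153 to 0.278 in Prf1-/- lung and 0.097 to 0.342 in bone. H2-K1 led in Prf1-/- lung and Gbp2 in bone among them. Iigp1 (0.322), Gbp2 (0.300), Ifi47 (0.228) and Igtp (0.206) encode interferon-inducible GTPases, and H2-K1 (0.284), H2-D1 (0.216) and B2m (0.189) encode chains of MHC class I. Psmb6 ranked 96 with r of 0.043, Psmb5 445 and Psmb7 1894.

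Most members stood higher in cells with more hashtag in each source. Mouse hashtag antibodies of the kind used here bind CD45 and MHC class I, and these cells were sorted as CD45-negative. Each source was split into 3 equal parts by hashtag total. In WT lung, Psmb8 stood at 76.3 CPM in the lowest part, 122 in the middle and 267 in the highest, a ratio of highest to lowest of 3.50 (2.78–4.44). In Prf1-/- lung it stood at 34.3, 62.3 and 129 CPM, a ratio of 3.76 (2.76–5.22). In Prf1-/- bone it stood at 149, 285 and 409.9 CPM, a ratio of 2.75 (2.04–3.74). Psmb8 thus stepped up with the hashtag total within every source. Psmb9 went from 8.92 to 56.0 CPM in Prf1-/- lung, a ratio of 6.28 (3.50–12.2), with ratios of 2.26 in WT lung and 2.34 in bone. Psmb10 had ratios of 1.77, 1.81 and 1.99 in Prf1-/- lung, WT lung and bone. Psme1 had ratios of 1.44, 1.42 and 2.11 and Psme2 of 1.47, 1.61 and 1.40, the last with an interval of 0.998–1.97. By the rule for a call, 4 of 5 members were higher in the highest part in WT lung, where 1.66% of all measured genes were. In Prf1-/- lung 3 of 5 were, against 1.51% of all genes, and in Prf1-/- bone 4 of 5, against 1.93%. Psmb5 had ratios of 1.04, 1.06 and 1.00, Psmb6 of 0.978, 1.24 and 0.904, and Psmb7 of 0.896, 0.906 and 1.11. Of these, only the interval of Psmb6 in WT lung (1.10–1.41) left out 1. The summed constitutive genes there had a ratio of 1.10 (1.02–1.19). The class I chains had summed ratios of 1.66, 1.68 and 1.54. The median depth of the highest part was above that of the lowest, at 3057 against 2744 UMIs in WT lung, 3085 against 2654 in Prf1-/- lung and 3176 against 3034.5 in bone. The part of class I level and depth in these ratios was not tested.

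**Figure D5:**
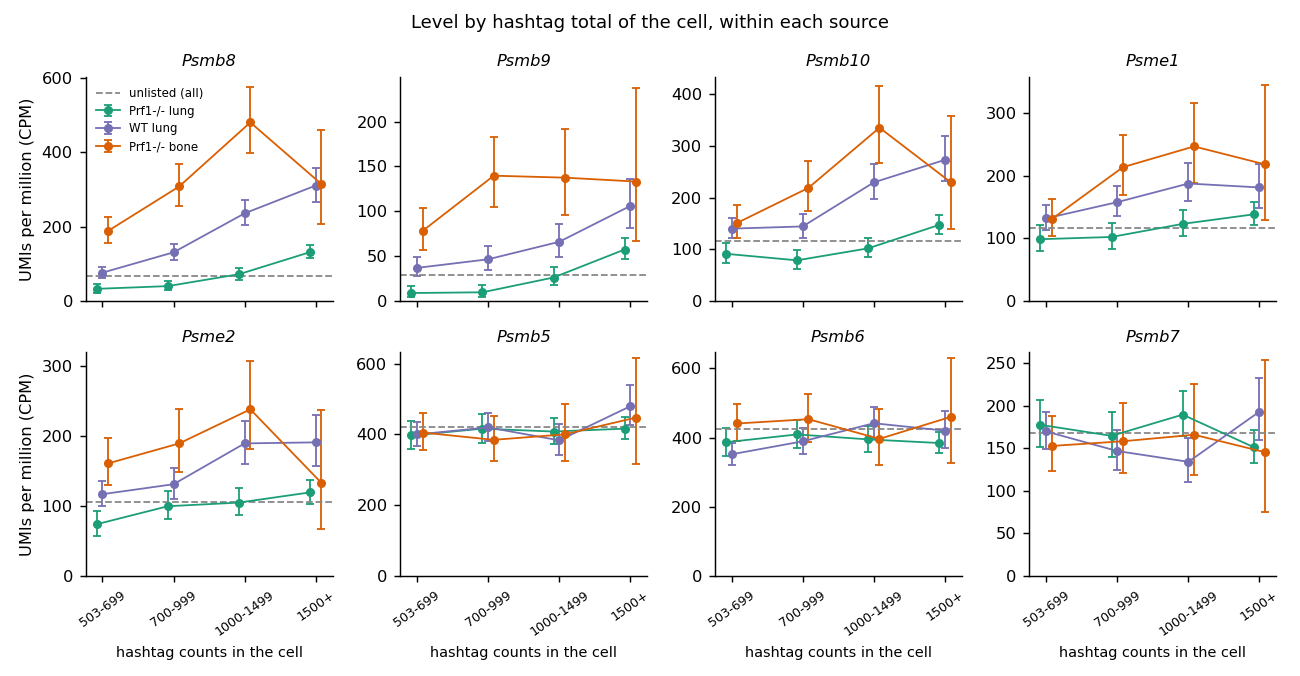
Level of each member and each constitutive gene in CPM by hashtag total of the cell, in 4 ranges, with exact 95% intervals; lines join the ranges of a source and the dashed line is the level in all unlisted cells. Psmb8 goes from 31.7 CPM below 700 to 130.8 CPM at 1500 or more in Prf1-/- lung and from 75.3 to 311 CPM in WT lung, and in bone from 188 to 481 CPM before the last range of 20 cells at 315 CPM.

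The sources differed in hashtag total, with medians of 1098 in Prf1-/- lung, 794 in WT lung and 726 in Prf1-/- bone, and each source had its own hashtag. Among cells with totals below 700, Psmb8 stood at 31.7 CPM in Prf1-/- lung, 75.3 in WT lung and 188 in Prf1-/- bone. From 700 to under 1000 it stood at 39.1, 130.3 and 308 CPM, and from 1000 to under 1500 at 71.1, 236 and 481 CPM. The order of the sources was the same in each of these ranges. At 1500 or more it stood at 130.8, 311 and 315 CPM, where bone had 20 cells and overlapped WT lung. Over the inner range from 589.9 to 1237.2, set by the largest 10th and the smallest 90th percentile of the sources, the Psmb8 ratio of Prf1-/- to WT lung was 0.335 in place of 0.486. That of bone to Prf1-/- lung was 6.80 (5.35–8.70) in place of 3.69, and that of bone to WT lung was 2.28. For Psmb9, bone to Prf1-/- lung was 8.15 (5.40–12.6) over this range and 3.06 (2.13–4.34) at totals of at least 1000, and Prf1-/- to WT lung was 0.307 (0.199–0.461). The part that a different total in each source has in these ratios was not tested beyond these ranges.

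Cells with no hashtag listing were set against the 3374 listed cells, which include the 242 with no leading hashtag. Psmb8 was at 0.504 times its listed level (0.466–0.546) and Psmb9 at 0.597 times (0.526–0.676), and both were called lower. Over 7736 genes 0.194% were called lower and 0.0776% higher. Psmb10 was at 0.775 times, Psme1 at 0.829 times and Psme2 at 0.834 times, short of a call, and the summed constitutive genes at 1.04 times. The summed class I chains were at 0.669 times, and H2-K1 was called lower, at 208.5 against 381 CPM. Of 9 measured interferon gamma targets 3 were called lower, Iigp1 at a ratio of 0.495, Gbp2 at 0.601 and Igtp at 0.622, while Isg15, of the type I list, was called higher at 2.00. The median depth was 2418 UMIs in unlisted and 2931 in listed cells, and with at least 2000 genes a cell Psmb9 at 0.796 was not called. Marker lists of other cells also stood apart. The fibroblast list was at 36.5 CPM in unlisted and 8.47 in listed cells, with 6 and 5 of 6 genes detected, the erythroid list at 8.26 and 0.83 with 4 of 5 detected in both, and the osteoblast and stroma list at 5.59 and 1.93 with 6 and 4 of 7. The lung epithelial list was at 30.7 and 81.4 CPM, with Epcam and Krt18 at 0 in both. The neutrophil list was at 0.425 and 6.81 CPM, with 3 of 7 genes detected in both. It had 7 UMIs in 7 unlisted cells and 74 UMIs in 5 listed cells. Their part in these ratios was not tested. The listing and the source mixture of the unlisted cells cannot be told apart.

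Other genes of antigen presentation and interferon response were taken from lists, and genes below 10 CPM were left out of the counts. The lists were chosen with earlier results of these data known, so their counts are a description. In Prf1-/- against WT lung, 2 of 10 measured class I processing genes were called lower, against 1.07% of all genes, and none higher. These were Tap2, a chain of the peptide transporter, at 6.98 against 16.8 CPM, and Tapbp, which links the transporter to class I, at 35.5 against 53.8 CPM. In bone against Prf1-/- lung, 4 of 10 were called higher, against 2.64% of all genes. Among them were Tap1 at 65.4 against 32.8 CPM, a ratio of 1.99 (1.51–2.62), and the class I heavy chain H2-K1 at 506 against 335 CPM, a ratio of 1.51 (1.38–1.65). In bone against WT lung none of 11 was called. B2m, the light chain of class I, stood at 971 CPM in Prf1-/- lung, 1087 in WT lung and 1046 in bone, and Calr, a chaperone of class I assembly, at 1038, 995 and 1170.5.

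In both comparisons with Prf1-/- lung, the called targets of interferon gamma had the same direction as the called members. In Prf1-/- against WT lung, 8 of 10 were called lower, against 1.07% of all genes, with a median log2 ratio of -0.83. Among them were Ifi47 at 26.2 against 59.0 CPM, Gbp2 at 29.0 against 64.4 and Iigp1 at 53.9 against 111. In bone against Prf1-/- lung, 9 of 12 were called higher, against 2.64% of all genes, with a median of 0.97. They were led by the GTPase gene Gbp4 at 26.2 against 4.65 CPM, a ratio of 5.62 (3.19–10.1), and the chemokine gene Cxcl9 at a ratio of 2.95. In bone against WT lung, Cxcl9 (2.35) and Gbp4 (2.11) were called higher and Gbp3 (0.531) lower, of 12. Of all genes 2.28% were called higher and 5.29% lower. The chemokine gene Cxcl10 stood at 297 CPM in Prf1-/- lung, 361 in WT lung and 265 in bone.

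Targets of type I interferon were called lower in both comparisons with WT lung. In Prf1-/- against WT lung, 7 of 15 were called lower, against 1.07% of all genes, with a median log2 ratio of -0.56. Among them were Oasl2 at a ratio of 0.392 and Ifit3 at 0.548. In bone against Prf1-/- lung none of 15 was called and the median was 0.02. In bone against WT lung, 6 of 15 were called lower, against 5.29% of all genes, with a median of -0.39. Among them was Ifit3 at 103.9 against 186 CPM, while no member was called lower in this comparison. Of the interferon signalling genes, none of 14 was called between the lungs. In bone against Prf1-/- lung, Irf9 at 16.9 against 28.1 CPM and Socs3 at 23.1 against 50.6 CPM were called lower, of 13. Of all genes 4.85% were called lower there. In bone against WT lung, Irf9 (0.492), Socs3 (0.554) and Ifnar2 (0.646), a receptor chain for type I interferon, were called lower, of 14. The share over all genes was 5.29%. Irf1, a factor that binds interferon-response elements, stood at 25.2 CPM in Prf1-/- lung, 36.0 in WT lung and 25.4 in bone.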

How the data were processed

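Polyadenylated RNA and hashtag antibodies were measured in 1 pooled 10x 3′ run, in 2 libraries. The authors deposited raw UMI counts per gene and barcode and per hashtag and barcode; Cell Ranger 6.1.2, Seurat 4.3.0 and mm10 are named in the submitters' processing notes, and Cell Ranger 6.0.0 in the file header. No cell annotation was used here, so source was rebuilt from hashtag counts, named by hashtag feature. UMIs were summed per source and divided by the source total (CPM). Counting 1 tag per molecule, they were not scaled by length. Totals were 4726709 UMIs in Prf1-/- lung, 3865546 in WT lung and 1299480 in Prf1-/- bone, and 3 UMIs, the limit that a count of 0 allows, are 0.635, 0.776 and 2.31 CPM. Exact Poisson, conditional binomial and Clopper-Pearson intervals were computed with Python 3.11.15, numpy 2.4.6, pandas 2.3.3 and scipy 1.17.1. The rule for a call was tried on simulated Poisson counts with no spread between cells. That simulation cannot show how well the intervals hold for these data. Log2 ratios used CPM plus 1. The 3 parts by G2 and M phase share were cut over all filtered cells at 0% and 0.151% of a cell's UMIs. The lowest part thus held the cells with no UMI of the 20 listed phase genes. Thinning to 1500 UMIs left out 1 Prf1-/- lung and 6 unlisted cells. Cells with no leading hashtag were left out of the 3 sources as possible doublets. They remain among the 3374 listed cells and the 9637 thinned cells used for correlations. Doublets within 1 hashtag could not be seen, and no caller was run. HTODemux of Seurat 5.3.0 and TMM of edgeR 4.0.16 served as alternatives. Promoter windows came from RefSeq. The members and all gene lists were chosen with earlier results of these data known. Besides the members and constitutive genes, the text names the 2 most abundant genes of each list, called genes (at most 4 a pathway list) and the 10 genes closest to the members; 1 gene under this rule is not reported here. Psmb7 had no promoter entry.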

Additional observations from a re-analysis of the deposited data

How the results depend on the processing

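The comparisons are given in the order Prf1-/- against WT lung, bone against Prf1-/- lung and bone against WT lung. Of 399 ratios of members and summed members between sources under the alternatives, 394 kept their direction. The exceptions were all in bone against WT lung: with at least 2000 genes a cell the summed activator genes (0.953), Psmb10 (0.786), Psme1 (0.976) and Psme2 (0.928), and with hashtag totals below 700 Psme1 (0.992). The values below lay outside the counting interval of the value over all cells. With at least 2000 genes, Prf1-/- against WT lung gave 0.650 for the activator sum, bone against Prf1-/- lung gave 2.01 for the catalytic and 1.47 for the activator sum, and bone against WT lung gave 1.11 for the catalytic sum. With a hashtag call at 5 times the second, the catalytic sum of Prf1-/- against WT lung was 0.474. Relative to the constitutive core, bone against Prf1-/- lung gave 2.47 and 1.46 for the catalytic and activator sums, and bone against WT lung 1.38 for the catalytic sum. In the lowest of 3 parts by share of G2 and M phase genes, Prf1-/- against WT lung gave 0.793 for the activator sum, bone against Prf1-/- lung 3.13 for the catalytic sum, and bone against WT lung 1.72 and 1.37 for both sums. In the highest part, the catalytic sum was 0.608, 2.29 and 1.39 in the 3 comparisons. Over the inner hashtag range, the catalytic sum was 0.429, 4.40 and 1.89 and the activator sum 0.661 and 1.97 in the first 2. Hashtag ranges added after the data were seen gave, for bone against Prf1-/- lung, catalytic sums of 3.19 below 700, 5.27 at 700 to under 1000 and 3.16 at 1000 or more, with activator sums of 2.00 and 1.84 in the last 2. For Prf1-/- against WT lung they gave catalytic sums of 0.395 at 700 to under 1000 and 0.469 at 1000 or more, with an activator sum of 0.655 in the latter. For bone against WT lung the catalytic and activator sums were 2.08 and 1.40 at 700 to under 1000. The cause was not tested.

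The count of genes called went from 136 to 355 without a filter and 17 at 50 CPM for Prf1-/- against WT lung, from 576 to 120 and from 584 to 136 at 50 CPM for bone against Prf1-/- and WT lung, and from 21 to 252 and 7 for unlisted cells. HTODemux gave Psmb8 ratios of 0.509, 3.44 and 1.75 in the 3 comparisons. No paired analysis was possible because each source is 1 hashtag group with no replicate number, so no replicate could be left out. Counts limit Psmb9 most among the members, at 142 UMIs in Prf1-/- lung and 144 in bone.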

Other observations

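Within bone, the 97 cells with at least 10 UMIs of Cck, the gene of the peptide hormone cholecystokinin, held less of some catalytic genes than the other 288, at median depths of 3111 and 3107 UMIs. Psmb9 stood at 62.8 CPM (38.9–96.0) against 127 CPM (106–152), and Psmb10 at 132 CPM (95.6–177) against 238 CPM (209–271). Psmb8 stood at 248 against 301 CPM and Psme1 at 218 against 170.0 CPM, and the activator gene Psme2 at 138 against 198 CPM, each with overlapping intervals.

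The 3 parts by share of G2 and M phase genes were unequal, with 589 Prf1-/- lung cells in the lowest and 422 in the highest. By this share, Psmb9 stood at 41.2 CPM in the highest and 21.1 CPM in the lowest part of Prf1-/- lung, a ratio of 1.95 (1.26–3.08). In bone the ratio was 1.18 (0.752–1.90). Psme1 in Prf1-/- lung went the other way, at 106 against 139.9 CPM, a ratio of 0.760 (0.616–0.935). In the same parts Psmb8 stood at 90.8 against 75.9 CPM, and in Prf1-/- bone at 283 against 315 CPM. The lowest part held no UMI of the listed phase genes, which is likelier in shallow cells. Between the deepest and shallowest parts of Prf1-/- lung, Psmb9 had a ratio of 1.25 (0.783–2.05) and Psme1 of 0.837 (0.672–1.05). The part of depth in the ratios by phase share was not tested. By depth, the summed members in Prf1-/- bone stood at 1209 CPM in the shallowest and 816 CPM in the deepest part, with median depths of 2338.5 and 4315 UMIs, while in WT lung they stood at 696 and 705 CPM. The 242 cells with no leading hashtag held 89.2 CPM of Psmb8 (71.5–110.1) and 27.7 CPM of Psmb9 (18.2–40.3).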
